A study of Mus musculus with 13 samples.

Results

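Core-like neurons of the mouse claustrum that carried a tracer from the retrosplenial cortex (RSC) were compared with core-like neurons of the same mice that were harvested without a projection label (Unlabeled). A cell counted as core-like when it had at least 1 count of Snap25, a neuronal gene, and of Slc17a7, a vesicular glutamate transporter of excitatory neurons, and when Synpr reached 200 CPM, the number of its counts per 1e+06 counts of the cell. Synpr encodes synaptoporin, a protein of synaptic vesicles. Spike-in RNA was left out of the total. The rule gave 213 RSC cells, of which 52, 56 and 105 came from mice 1, 2 and 3, and 67 Unlabeled cells, of which 18, 21 and 28 came from the same mice. These 280 cells were part of 1112 cells harvested in the series, 1011 of which had the counts of Snap25 and Slc17a7 that the rule asks for. Counts were summed per mouse and label, so that each comparison below rests on 3 sums a side and cells were never used as replicates.

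The claustrum is a thin sheet of neurons between the striatum and the insular cortex. Its excitatory neurons are reciprocally connected with much of the cortex, and those of its core are known for projections to midline cortical areas, among them the retrosplenial cortex. Red retrobeads, which are fluorescent tracer particles moved from axon endings to the soma, had been injected into the RSC of 3 mature male C57BL/6 mice, and green ones into the lateral entorhinal cortex (LEC). Cells were picked by hand from the microdissected claustrum, some of them for their beads, and were sequenced plate by plate with a barcode for each cell. All groups therefore came from mice that carried both injections. Unlabeled means only that no label was recorded for a cell. Cells of the study that were not chosen for a projection were picked blind, so that Unlabeled cells may include cells with beads, and a cell without visible beads may still have had an axon in the RSC.

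The sums held 11505718, 5574028 and 18753910 counts in RSC cells and 2331748, 4676394 and 5429725 counts in Unlabeled cells of mice 1, 2 and 3. Unlabeled cells of each mouse came from 1 plate of their own, and RSC cells came from other plates, namely 1 plate in mouse 1, 1 in mouse 2 and 2 in mouse 3. RSC or Unlabeled label and plate thus cannot be told apart, and these labels could not be compared within a plate. Among the 280 cells, 177 carried a cell barcode that a cell of another plate carried too. The median cell held from 97775 to 208810 counts in the RSC sums and from 122808 to 230792 in the Unlabeled sums. The shallowest core-like cell held 2586 counts among RSC cells and 40989 among Unlabeled cells. Over 12 measures per cell (8 summed marker lists, counts, genes detected, spike-in share and mitochondrially encoded share), no difference between the labels had an adjusted p under 0.72 in an exact two-sided permutation test over mouse medians, where the smallest p that 3 against 3 mice allow is 0.10. The mitochondrially encoded share reached that smallest p: its mouse medians were 1.98%, 2.05% and 1.92% in RSC cells and 2.31%, 2.43% and 2.41% in Unlabeled cells (adjusted p = 0.72). With means over cells in place of medians the share was 0.084 percentage points higher in RSC cells.

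Synpr chose the cells and is given here as a description. Its median in core-like cells was 1762, 1561 and 1864 CPM in RSC cells and 2019, 1301 and 1647 CPM in Unlabeled cells of mice 1, 2 and 3, so the order of the labels differed between mice. The limit lay in a sparse stretch of the distribution. The nearest cell below it had 177.6 CPM and the nearest cell above it 275.2 CPM, and 4 of the 487 kept cells of both labels lay between 100 and 200 CPM. The cell at 275.2 CPM, an RSC cell of mouse 2, had only 2 counts of Synpr among 7268 counts. Core-like cells made up 81.3% of kept RSC cells in mouse 1 (95% Clopper-Pearson interval, 69.5% to 89.9%), 80.0% in mouse 2 (68.7% to 88.6%) and 92.9% in mouse 3 (86.5% to 96.9%). Among kept Unlabeled cells the shares were 22.5% (13.9% to 33.2%), 28.4% (18.5% to 40.1%) and 32.6% (22.8% to 43.5%). These intervals cover counting error only.

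**Figure D1:**
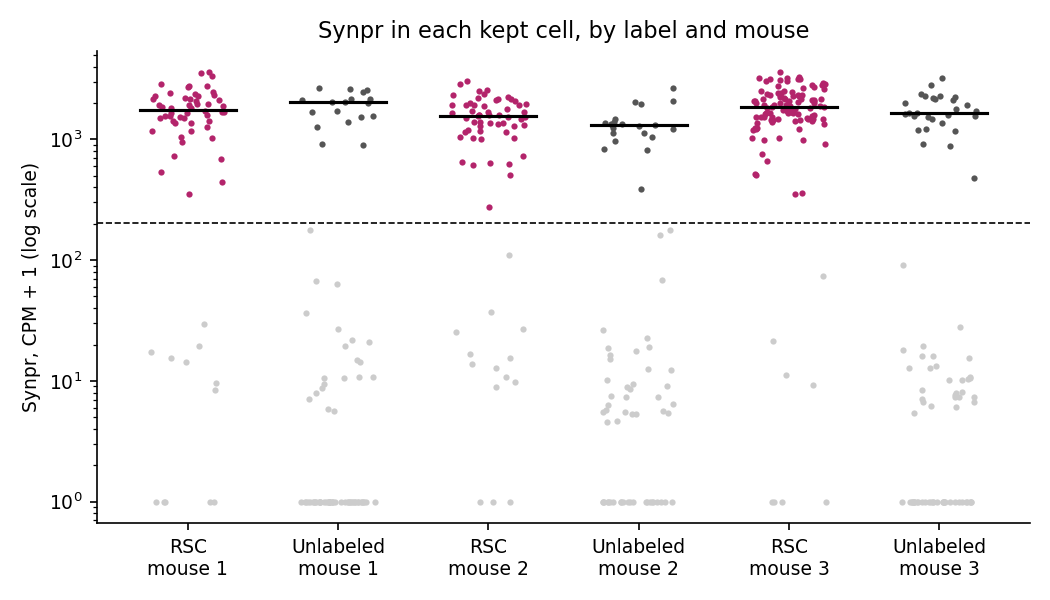
Synpr in CPM plus 1 (vertical, log scale) in each kept cell of the RSC and Unlabeled labels, by mouse; pink (RSC) and dark grey (Unlabeled) points are core-like cells, pale points are the other kept cells, the dashed line marks 200 CPM and black bars mark the median of the core-like cells. Few points lie near the dashed line, and the medians of core-like cells lie between 1301 and 2019 CPM in all 6 sums.

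As a group, the cells carried the markers of the claustral core. Gnb4 and Nr4a2 were nearly absent from 3 RSC cells, which are described with the markers of other cells. Pooled over both labels, Gnb4 (a G protein subunit) stood at 1307 CPM in the 280 core-like cells and at 206 CPM in the 207 other kept cells of the same labels. Nr4a2 (a nuclear receptor) stood at 1484 and 200 CPM, and Lxn (latexin, a carboxypeptidase inhibitor) at 1504 and 293 CPM. Slc30a3, the vesicular zinc transporter that marks the shell, stood at 6.59 CPM in core-like cells and 221 CPM in the others. The marker lists had been put together with earlier results of these cells known, so these levels describe the class and are no independent evidence for it.

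No gene differed between RSC and Unlabeled core-like cells past the threshold. Of 11550 genes tested with edgeR's quasi-likelihood test, 0 had an adjusted p under 0.05 (0.0% of those tested), and the smallest adjusted p was 0.710. At an unadjusted p under 0.05 there were 615 genes (5.32%), of which 354 were higher (3.06%) and 261 were lower (2.26%) in RSC cells. DESeq2, run on the same sums, called 15 genes (0.13%), 11 of them higher and 4 lower in RSC cells. In 1399 genes (12.1%) the RSC sums and the Unlabeled sums did not overlap, with RSC higher in 820 (7.1%) and lower in 579 (5.01%).

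The width of the intervals varied with the level of a gene. For the 2094 genes with a mean of 100 CPM or over, the 95% interval of the log2 fold change had a median half-width of 0.37, and the interval lay within a 2-fold change in either direction for 2029 of them (96.9%). For the 6353 genes from 10 to 100 CPM the median half-width was 0.78, and 2784 intervals (43.8%) lay within that bound. For the 3103 genes under 10 CPM it was 1.96, and no interval did. A p that misses the threshold does not show that the labels were alike, and for the last class of genes even a large difference could go unseen.

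**Figure D2:**
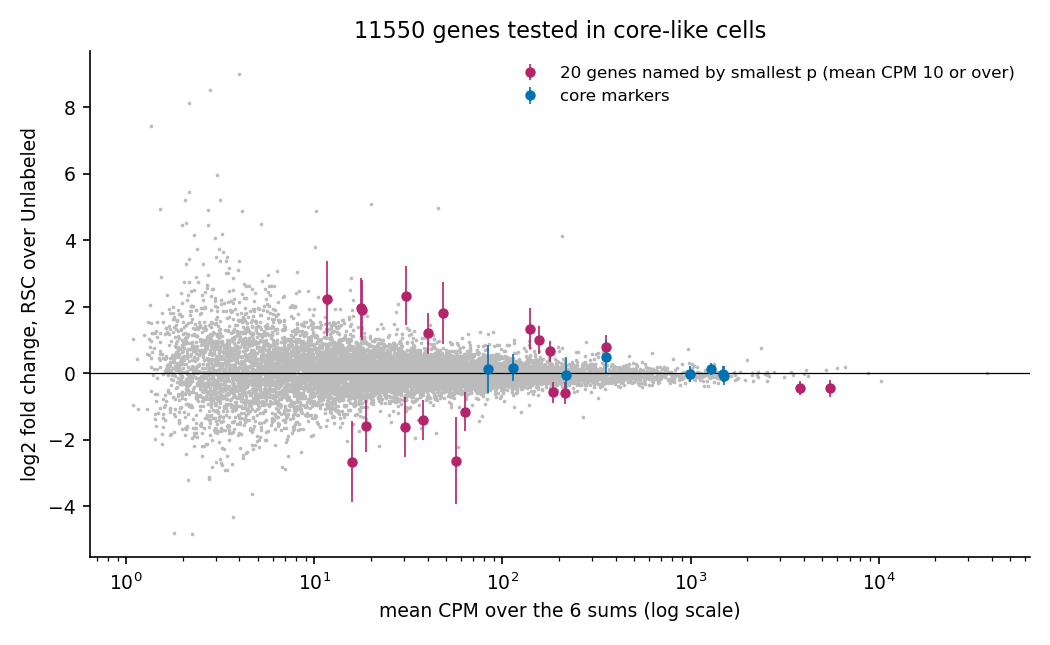
Log2 fold change of RSC over Unlabeled core-like cells (vertical) against mean CPM over the 6 sums (horizontal, log scale) for the 11550 genes tested; pink points are the 20 genes named by smallest p, blue points are the 8 core markers, and bars are 95% intervals. The grey cloud narrows with rising level, and the core markers lie close to 0 while none of the pink points passed the threshold.

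The core markers were measured closely enough to bound their differences. Of the 8 core markers 0 passed the threshold, the interval of each of the 8 lay within a 2-fold change, and their median log2 fold change was 0.05, beside 0.00 over all genes tested. Gnb4 had 1378, 1343 and 1312 CPM in RSC cells and 1172, 1206 and 1249 CPM in Unlabeled cells of mice 1, 2 and 3. All 3 RSC sums lay above the 3 Unlabeled sums, yet the difference was small, with a log2 fold change of 0.13 (95% interval, -0.05 to 0.32). Nr4a2 had 1475 ± 110 CPM in RSC cells and 1495 ± 191 CPM in Unlabeled cells (SD, n = 3 mice each), with a log2 fold change of -0.04 (-0.27 to 0.20). Lxn had 1481 ± 33.7 and 1539 ± 302 CPM (-0.37 to 0.21 on the log2 scale). Rgs12, which encodes a regulator of G protein signaling, had 985 ± 77.7 and 991 ± 94.1 CPM (-0.27 to 0.21).

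Cpne4, a calcium-dependent membrane-binding copine, was the core marker with the smallest p. It had 462, 351 and 443 CPM in RSC cells and 315, 186 and 379 CPM in Unlabeled cells, higher in RSC cells in 3 of 3 mice but with 1 RSC sum below the highest Unlabeled sum (log2 fold change 0.50 ± 0.222 SE, unadjusted p = 0.0482, adjusted p = 0.931). Cpne9, a second copine, had 121 ± 15.5 and 106 ± 11.4 CPM. Gfra1, a receptor for GDNF, had 216 ± 24.7 and 221 ± 89.2 CPM. Slc17a6, another vesicular glutamate transporter, had 87.6 ± 5.80 and 79.3 ± 41.1 CPM. For these 4 genes the spread was wider, and the log2 intervals of Cpne9, Gfra1 and Slc17a6 ran from -0.23 to 0.56, from -0.60 to 0.49 and from -0.60 to 0.85.

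The shell markers varied between mice. Of 8 shell markers 0 passed the threshold, 2 had a positive and 6 a negative log2 fold change, and their median was -0.21. Nnat, which encodes the membrane proteolipid neuronatin, had 52.1, 19.7 and 34.8 CPM in RSC cells and 27.0, 110 and 75.1 CPM in Unlabeled cells (log2 fold change -1.02, 95% interval -2.07 to 0.02, adjusted p = 0.931). Mouse 1 ran the other way from mice 2 and 3. Syn2, which encodes synapsin II, had 310, 288 and 263 CPM against 270, 500 and 358 CPM (-0.87 to 0.04), again with mouse 1 in the other order. Slc30a3 stood at 5.30, 0.00 and 8.42 CPM against 5.15, 11.8 and 5.89 CPM, and its interval, -3.18 to 1.69, spans differences in both directions. A single cell held 53.9% of its RSC counts. Spon1, Col6a1, Mpped1, Ntm and Ldb2 had overlapping sums, with log2 fold changes from -0.34 to 0.53.

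**Figure D3:**
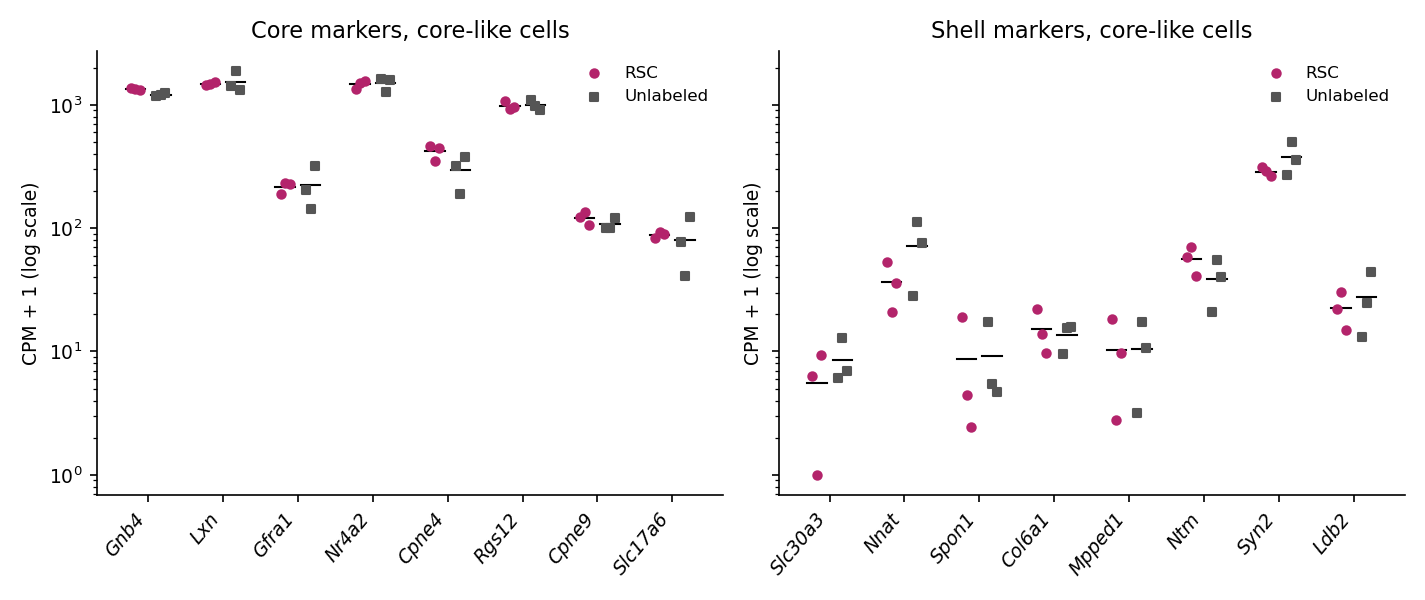
Level in CPM plus 1 (log scale) of the 8 core markers and the 8 shell markers in the RSC sums (circles) and Unlabeled sums (squares) of core-like cells; each point is 1 mouse and each bar the mean of 3 mice. Both labels stand at like levels for the core markers, and the sums of most shell markers scatter more.

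The 10 genes with the smallest p among those higher in RSC cells, with a mean level of at least 10 CPM, are given next; none passed the threshold, each had an adjusted p of 0.710, and in each the RSC sums lay above all Unlabeled sums, as was so for 7.1% of all genes. They were picked for their p, so that the separation is part of how they were found. Penk, the precursor of the enkephalin opioid peptides, came first. It had 31.0, 60.1 and 62.5 CPM in RSC cells and 9.86, 6.63 and 13.6 CPM in Unlabeled cells of mice 1, 2 and 3, which is a log2 fold change of 2.33 ± 0.399 (SE; 95% interval, 1.44 to 3.21; unadjusted p = 0.000138). Only a minority of cells of either label had a count of Penk. It was seen in 15 of 52, 19 of 56 and 40 of 105 RSC cells and in 3 of 18, 3 of 21 and 7 of 28 Unlabeled cells. With each cell thinned to 20000 counts, which left out 4 RSC cells, the shares were 21.6%, 24.5% and 27.6% against 5.56%, 4.76% and 10.7%. After thinning, the RSC shares lay above the Unlabeled shares without overlap, as the summed levels did.

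Mgll, the monoacylglycerol lipase that breaks down an endocannabinoid, had 219, 189 and 217 CPM in RSC cells and 126, 78.5 and 107 CPM in Unlabeled cells (log2 fold change 0.99, 95% interval 0.57 to 1.41). Laptm4b, a lysosomal membrane protein, had 444, 554 and 365 CPM against 254, 240 and 278 CPM (0.44 to 1.16). Asap1, which activates the GTPase of small Arf proteins, had 211, 231 and 216 CPM against 136, 127 and 149 CPM (0.33 to 0.98). These 3 genes were found in most cells of either label. The sums of Asap1 were tight within each label. Those of Laptm4b in RSC cells and of Mgll in Unlabeled cells spread more, from 365 to 554 CPM and from 78.5 to 126 CPM. Eif3f and Glrx5 differed more, with a wider spread among the Unlabeled mice. Eif3f, a subunit of a translation initiation factor, had 161, 210 and 233 CPM against 120, 55.8 and 64.5 CPM (0.71 to 1.94). Glrx5, a mitochondrial protein of iron-sulfur cluster assembly, had 68.5, 74.1 and 83.2 CPM against 39.0, 16.3 and 10.5 CPM (0.88 to 2.74).

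The other 4 genes were scarce. Tex10, a nuclear protein, had 28.5 ± 8.16 CPM in RSC cells and 7.15 ± 0.660 CPM in Unlabeled cells. Pcgf6, a subunit of a Polycomb repressive complex, had 28.4 ± 6.23 and 7.42 ± 1.93 CPM. It was seen in 39.9% and 28.4% of cells, and in 26.8% and 4.48% of cells thinned to 20000 counts. Zfp688, a zinc finger protein, had 56.4 ± 10.5 and 24.4 ± 3.51 CPM, and AI987944 had 19.4 ± 4.37 and 3.95 ± 1.57 CPM (SD, n = 3 mice each). AI987944 had a count in 16.4% of cells of each label (11.5% and 2.99% of thinned cells). For AI987944 a single cell held 20.2% of the RSC counts and another 37.0% of the Unlabeled counts, so that few cells set its level.

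The 10 genes with the smallest p among those lower in RSC cells had an adjusted p of 0.710 each as well, and their RSC sums lay below all Unlabeled sums, as was so for 5.01% of all genes. Tfap2d, a transcription factor of the AP-2 family, had 24.9, 16.3 and 21.3 CPM in RSC cells and 54.5, 52.8 and 56.2 CPM in Unlabeled cells (log2 fold change -1.40 ± 0.273 SE, 95% interval -2.01 to -0.80, unadjusted p = 0.000377). In thinned cells it was seen in 12.9% of RSC and 43.3% of Unlabeled cells. Necab1, a neuronal calcium-binding protein, had 1.65, 5.38 and 6.08 CPM against 27.9, 34.4 and 19.5 CPM (-3.88 to -1.44), and was seen in 5.26% and 25.4% of thinned cells. Without thinning, Tfap2d had counts in 38 of 213 RSC and 33 of 67 Unlabeled cells and Necab1 in 16 and 27, so that each was found in a smaller share of the RSC cells. Chgb, chromogranin B of dense-core vesicles, had counts in every cell of both labels. It stood at 2973, 3638 and 3180 CPM against 4550, 4519 and 3985 CPM, the smallest of the 10 differences, with a log2 fold change of -0.43 (-0.64 to -0.22).

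Eif1ax, a translation initiation factor, had 196, 154 and 171 CPM in RSC cells and 265, 252 and 259 CPM in Unlabeled cells. Bzw2, a regulator of translation, had 151 ± 7.65 and 222 ± 15.1 CPM. Slc25a10, the mitochondrial dicarboxylate carrier, had 14.9 ± 5.89 and 45.9 ± 17.7 CPM. These were differences in the level of RNA in CPM and not in the amount per cell. The mitochondrial large ribosomal RNA, mt-Rnr2, had 4300, 5673 and 4101 CPM against 6179, 6050 and 6758 CPM (-0.70 to -0.20 on the log2 scale). Cd83, an immunoglobulin-like membrane protein, had 27.6, 45.2 and 44.8 CPM against 96.5, 68.9 and 94.3 CPM, and Ccdc80, a secreted matrix protein, had 9.57 ± 0.109 and 28.2 ± 3.73 CPM. AC027184.1 had 19.3, 4.13 and 23.2 CPM against 95.6, 40.2 and 157 CPM, and the mouse with the lowest level was mouse 2 under both labels.

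**Figure D4:**
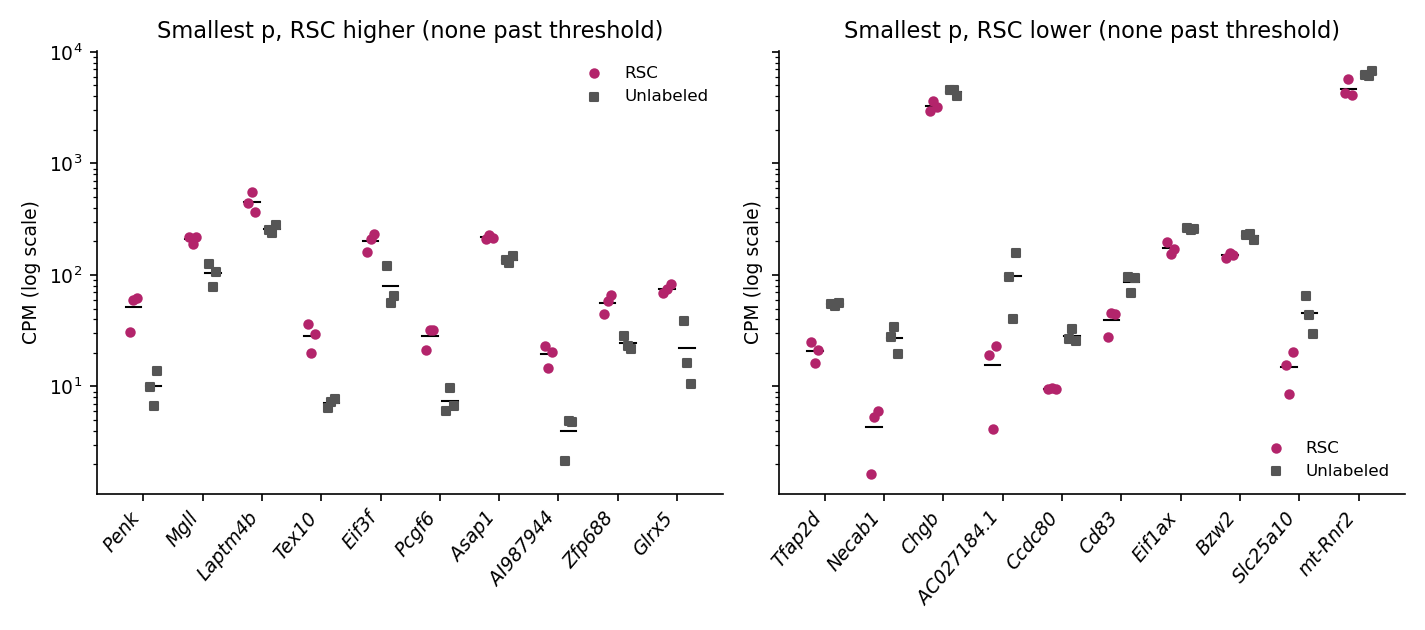
Level in CPM (log scale) of the 20 genes named by smallest p in the RSC sums (circles) and Unlabeled sums (squares) of core-like cells; each point is 1 mouse and each bar the mean of 3 mice. In all 20 genes the circles and squares do not overlap, and the adjusted p was 0.710 for each.

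Mouse 3 gave RSC core-like cells from 2 plates, 29 and 76 of them, which shows how far plates of a single mouse and label lay apart. In each of the 20 genes both plates lay beyond all Unlabeled sums. The sum of these plates went into the p that picked the genes, so this position follows in part from the choice. It was narrow in Slc25a10, at 29.3 CPM on the plate of 29 cells and 29.7 CPM in Unlabeled cells of mouse 3. Penk had 69.2 and 59.0 CPM on these plates, Mgll 209 and 221 CPM, and Tfap2d 19.1 and 22.5 CPM. The absolute log2 ratio between the plates had a median of 0.34 over the 20 genes, beside a median absolute log2 fold change of 1.37 between the labels. The ratio was highest in AI987944, at 1.99. The label differences of genes picked for a small p are overstated as a rule, so the medians are given as a description. They do not separate plate from label.

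DESeq2 called 12 of these 20 genes, with Penk at an adjusted p of 0.000512, Mgll and Eif3f at 0.00322, Laptm4b and Necab1 at 0.00439, Tfap2d at 0.00734 and the other 6 between 0.0173 and 0.0436. Under edgeR's quasi-likelihood test with the mouse as a block none of them was called (adjusted p = 0.938 for 19 of the 20 and 0.156 for AC027184.1). The other 3 genes that DESeq2 called had mean levels under 10 CPM and are named here because they were called. Lhfpl1, a membrane protein, had 3.56, 10.6 and 9.70 CPM in RSC cells and 0 counts in all 3 Unlabeled sums. It had a count in 14 of 213 RSC cells and 0 of 67 Unlabeled cells. The latter allows a share of up to 4.48% of cells with a count, not of cells that express the gene. That bound pools the cells of 3 mice as if they were independent. It covers counting error only, and no difference between the labels is drawn from it. Suv39h2, a histone methyltransferase, was seen in 16 of 213 and 0 of 67 cells, and 1 cell held 32.2% of its RSC counts. Chn2, a regulator of Rac signaling, had 9.39, 10.6 and 10.1 CPM against 0.00, 0.00 and 1.11 CPM, and was seen in 16 of 213 and 1 of 67 cells. Such counts come from few cells. Lhfpl1, Suv39h2 and Chn2 could pass the low-count filter only through the RSC sums, so no fold is given.

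Neuropeptides and receptors were next described by lists. Of 11 neuropeptide and neurotrophic genes tested, 3 were higher and 1 was lower at an unadjusted p under 0.05, beside 3.06% and 2.26% of all genes tested, and 0 passed the threshold. The 4 genes were Cck, Penk, Npy and Chgb, and of these Npy turned from a log2 fold change of 4.13 to -0.85 without 3 RSC cells that carried inhibitory genes, described with the markers of other cells. Cck, cholecystokinin, had 6281, 6641 and 6177 CPM in RSC cells and 5990, 5406 and 5685 CPM in Unlabeled cells, so that its sums did not overlap at a log2 fold change of 0.14 (95% interval, 0.00 to 0.28). Bdnf, a neurotrophin, had 911, 1072 and 1260 CPM against 1092, 1246 and 1809 CPM (-0.76 to 0.02). Of 15 receptors for monoamines, opioids, cannabinoids and adenosine, 1 was higher and 2 were lower at that level (3.06% and 2.26% of all genes). Htr2c, a serotonin receptor, had 50.5, 75 and 45.3 CPM against 103, 115 and 98.0 CPM (log2 fold change -0.91, -1.44 to -0.39; adjusted p = 0.720). Adra2c, an adrenergic receptor, had 44.1, 46.3 and 54.6 CPM against 9.86, 30.6 and 18.4 CPM (0.40 to 2.11). Oprm1, the mu opioid receptor, was near the limit of the data, from 0.435 to 1.08 CPM against 2.14 to 4.60 CPM. It could pass the low-count filter only through the Unlabeled sums.

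Synaptic and channel genes lay close to 0 as groups. Of 22 glutamate receptor and scaffold genes, 2 were higher and 0 lower at an unadjusted p under 0.05 (3.06% and 2.26% of all genes), Grm8 and Grik5, and the median log2 fold change was -0.09. Grm8, a metabotropic glutamate receptor, had 26.9, 17.9 and 11.9 CPM in RSC cells and 6.43, 7.27 and 7.55 CPM in Unlabeled cells (0.35 to 2.43). Of 27 potassium channel genes, Kcnj9 and Kcnn2 were the 2 higher ones beside the same share of all genes, 0 were lower, and the median was 0.09. Kcnj9, a G protein-gated potassium channel, had 159, 189 and 147 CPM against 119, 107 and 118 CPM (0.14 to 0.88; adjusted p = 0.850). No sodium, calcium or HCN channel gene of 25, no GABA or acetylcholine receptor gene of 18 and no vesicle release gene of 22 reached an unadjusted p under 0.05, and their medians were 0.05, -0.06 and -0.02, the last of which was 0.001 with library totals alone. The smallest p in these 3 lists belonged to Cacng3, an AMPA receptor auxiliary subunit, at 231 ± 17.4 and 290 ± 54.7 CPM, to Gabrd, a GABA-A receptor subunit, at 76.3 ± 14.2 and 51.9 ± 13.4 CPM, and to Stx1a, a syntaxin of vesicle fusion, at 203 ± 15.1 and 244 ± 8.85 CPM. The interval lay within a 2-fold change for 19 of the 22 vesicle release genes, 17 of the 27 potassium channel genes and 11 of the 22 glutamate receptor genes.

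Genes of axons were tested because the labels concern axonal targets. Of 26 axon guidance genes, 1 was higher and 1 was lower at an unadjusted p under 0.05, near the 3.06% and 2.26% of all genes, and the median log2 fold change was -0.11. Sema5a, a transmembrane semaphorin, had 37.8, 57.1 and 41.3 CPM in RSC cells and 27.9, 14.8 and 17.3 CPM in Unlabeled cells (log2 fold change 1.18, 95% interval 0.43 to 1.93; adjusted p = 0.743). Epha7, an ephrin receptor, had 80.3, 76.6 and 96.0 CPM against 102, 123 and 122 CPM (-0.89 to -0.07). Of 17 genes of the axon cytoskeleton and transport, Gap43 alone reached that level, on the side where 2.26% of all genes did. Gap43, a growth cone protein, had 1204, 1193 and 1376 CPM against 1631, 1544 and 1416 CPM (-0.52 to -0.09; adjusted p = 0.838), and the interval lay within a 2-fold change for 15 of the 17. The lysosome and endocytosis list, chosen because beads are taken up into vesicles, had 0 of 21 genes higher and 3 lower at that level (3.06% and 2.26% of all genes), with a median of -0.07. Its 3 genes were Psap, prosaposin, at 328, 251 and 305 CPM against 363, 473 and 374 CPM, Hexa, and Cd68, a lysosomal membrane protein that held 6 counts in 4 RSC cells and 54 counts in 7 Unlabeled cells. A single cell held 55.6% of those 54 counts. Cd68 could pass the low-count filter only through the Unlabeled sums, so it could count as lower but not as higher.

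Immediate early genes, which neurons transcribe within minutes of activity or handling, had a negative log2 fold change in 15 of 18 genes, with a median of -0.82, and 0 passed the threshold. At an unadjusted p under 0.05, 0 were higher and 4 were lower (3.06% and 2.26% of all genes), namely Gadd45b, Npas4, Fosl2 and Junb. Junb had 94.0, 120 and 252 CPM in RSC cells and 190, 162 and 790 CPM in Unlabeled cells. Gadd45b had 12.5, 14.5 and 34.6 CPM against 30.9, 32.7 and 221 CPM (log2 fold change -2.22, 95% interval -3.80 to -0.64; adjusted p = 0.838). Unlabeled cells of mouse 3, which filled a single plate, were the highest sum for each of these 4 genes, and RSC cells of mouse 3 were the highest RSC sum. Fos had 49.2, 42.3 and 142 CPM against 64.8, 124 and 331 CPM, with mouse 3 again the highest under both labels. The part of the plate in these levels was not tested. Heat shock and chaperone genes had a median of -0.10, and 0 of 10 reached an unadjusted p under 0.05; Hspd1, the first of them, had 79.5 ± 6.66 and 98.4 ± 15.4 CPM.

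Genes of respiration and of the ribosome had mostly small negative log2 fold changes. Of 82 nuclear genes of oxidative phosphorylation, 20 had a positive and 62 a negative log2 fold change, with a median of -0.11. At an unadjusted p under 0.05, 0 were higher and 9 were lower (3.06% and 2.26% of all genes), and 0 passed the threshold. The RSC sums lay above all Unlabeled sums in 0 genes and below them in 12 (7.1% and 5.01% of all genes). Ndufv3, a subunit of complex I, had 430, 461 and 535 CPM in RSC cells and 598, 617 and 679 CPM in Unlabeled cells (-0.69 to -0.17; adjusted p = 0.740). The differences were small, and the interval lay within a 2-fold change for 78 of the 82. Of 13 mitochondrially encoded genes, 0 were higher and 2 were lower at that level, mt-Rnr2 and mt-Cytb, beside the same shares. The latter, cytochrome b, had 9950, 8776 and 9913 CPM against 10499, 11181 and 11611 CPM. Of 76 cytosolic ribosomal protein genes, 26 had a positive and 50 a negative log2 fold change, with a median of -0.12, and 0 were higher and 6 lower at that level, beside the same shares, first among them Rplp2 at 126, 133 and 150 CPM against 172, 180 and 213 CPM. Ribosomal protein genes have many near-identical pseudogene copies, which could split their reads. The part of the mitochondrially encoded share given above in these values was not tested. The medians of these 3 lists kept their sign with size factors of DESeq2's kind or with library totals alone.

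**Figure D5:**
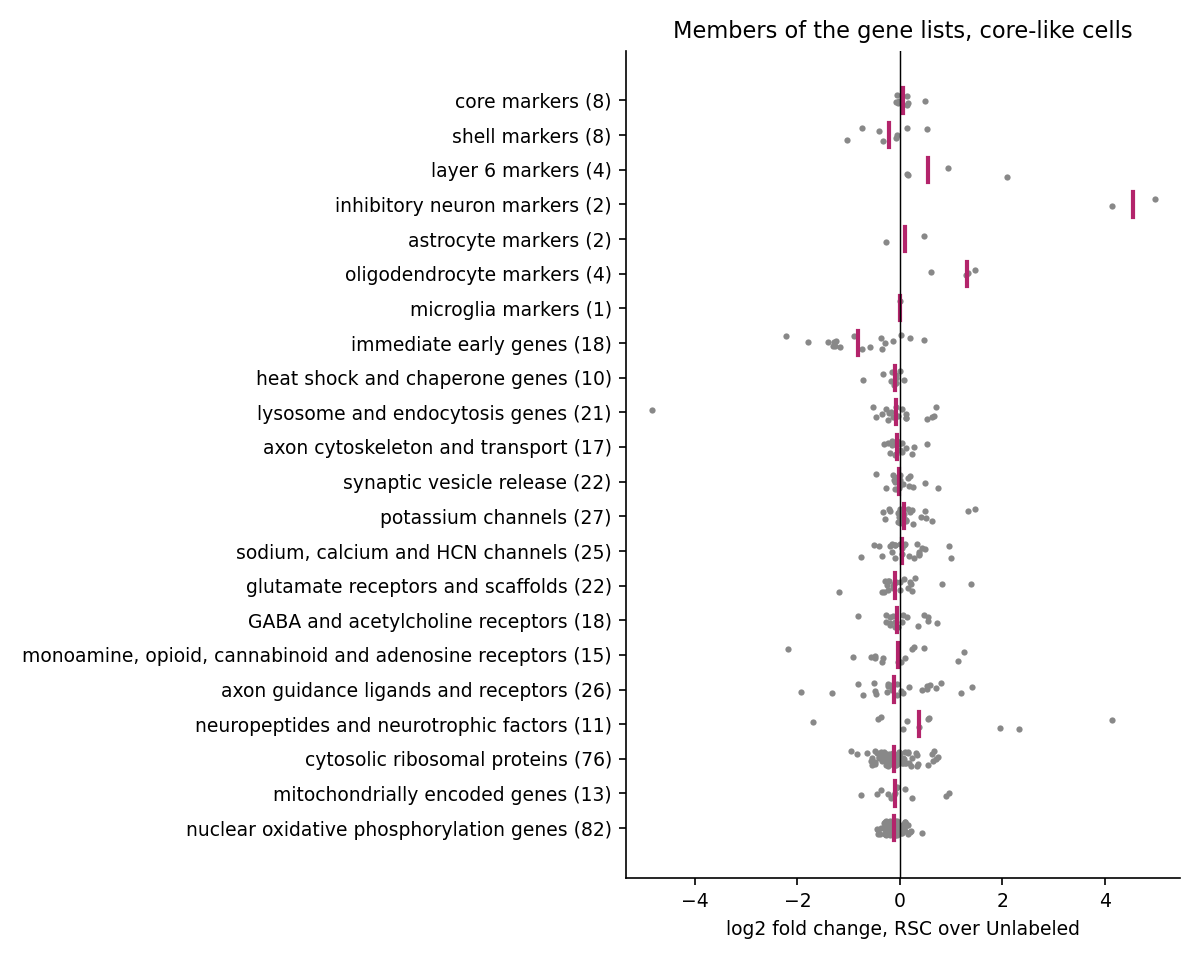
Log2 fold change of RSC over Unlabeled core-like cells (horizontal) for the tested members of each gene list (rows, with the number of tested members); each grey point is 1 gene, each pink bar is the median of the list and the thin black line is the median of all genes tested. Most medians lie near the line, and those of the oligodendrocyte, inhibitory neuron and layer 6 lists, which rest on 4, 2 and 4 genes, of the immediate early genes and of the neuropeptides lie away from it.

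Markers of other cells were low, with an exception whose high levels came from single cells. Of 10 inhibitory neuron markers only Sst and Npy, a pair of interneuron peptides, passed the filter on low counts. Sst could do so only through the RSC sums. Sst had 114, 6.10 and 146 CPM in RSC cells and 0.429, 7.27 and 0.00 CPM in Unlabeled cells (log2 fold change 4.97, adjusted p = 0.710), and Npy had 643, 11.7 and 528 CPM against 2.14, 33.1 and 27.1 CPM (4.13). Of the RSC cells, 3 (1 in mouse 1 and 2 in mouse 3) had counts of both Gad1 and Gad2, the genes of GABA synthesis, at 199 to 392 and 150 to 214 counts. Each had 1 count of Slc17a7, the least the rule accepts, and Synpr of 349, 350 and 1471 CPM. In that order these 3 cells had 3, 0 and 0 counts of Gnb4 and 0, 0 and 1 of Nr4a2, so their class rests on Synpr. One of them alone held 66.1% of all Sst counts of RSC cells and 55.4% of those of Npy. A count of Sst was found in many more cells, in 34 of 52, 25 of 56 and 34 of 105 RSC cells. Among Unlabeled cells it was found in 1 of 18, 16 of 21 and 0 of 28. In RSC cells of mouse 3 all 34 were on 1 plate and 0 on the other, so the share varied with the plate. The cause was not tested. Without these 3 cells Sst stood at 4.23 CPM in mouse 1, its log2 fold change was 0.61 and that of Npy was -0.85, while 0 genes passed the threshold. No caller of doublets was run, since the cells were picked by hand.

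Glial markers were seen at low levels under both labels. Summed over 9 oligodendrocyte markers the level ran from 59.6 to 238 CPM in RSC sums and from 39.4 to 71.6 CPM in Unlabeled sums. Of the 4 that passed the filter, all had a positive log2 fold change, with a median of 1.30, and 0 passed the threshold. Cnp, an enzyme of myelin, had 58.3, 24.2 and 35.1 CPM against 19.3, 4.28 and 23.4 CPM, and Mbp, myelin basic protein, had 82.4, 25.1 and 29.5 CPM against 6.43, 19.2 and 28.5 CPM. Slc1a2, a glutamate transporter of astrocytes, had 194, 137 and 156 CPM against 120, 116 and 112 CPM. Aldoc, an aldolase and the other astrocyte marker tested, had a log2 fold change of the other sign, at 35.2, 16.5 and 23.0 CPM against 44.2, 12.8 and 33.5 CPM, and Aqp4, the water channel of astrocytes, had 0 counts in all 6 sums. The 8 astrocyte markers together ran from 161 to 232 CPM and from 131 to 173 CPM. The 9 microglia markers ran from 15.1 to 59.7 CPM and from 11.2 to 48.9 CPM. Vascular markers stayed at or under 0.36 CPM, with Vtn and Rgs5 at 0 in all 6 sums. The 10 layer 6 markers summed to 18.3 to 62.9 CPM and 4.28 to 36.0 CPM, and Rprm had the smallest p among them at 12.95, 2.33 and 0.00 CPM against 2.57, 0.855 and 0.368 CPM. The part of these cells in the differences above was not tested.

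Core-like cells labelled from the LEC give a further set of levels, from 18, 11 and 16 cells of mice 1, 2 and 3 on plates of their own, except that 10 cells of mouse 3 shared a plate with RSC cells. LEC against Unlabeled uses the same Unlabeled sums and RSC against LEC the same RSC sums as above, so values are set side by side only. Of 11834 genes, edgeR's quasi-likelihood test called 0 in either comparison (0.0%); 864 (7.3%) and 558 (4.72%) had an unadjusted p under 0.05, and DESeq2 called 27 (0.228%) and 9 (0.0761%). Penk had 25.1, 9.54 and 30.4 CPM in LEC cells, a log2 fold change of 1.12 (95% interval, 0.05 to 2.19) over Unlabeled cells, while that of RSC over LEC cells was 1.21 (0.17 to 2.25). Its LEC mean lay between the means of the other labels. Mgll had 171, 117 and 76.7 CPM in LEC cells, with 0.23 (-0.35 to 0.81) over Unlabeled cells and 0.76 (0.18 to 1.34) for RSC over LEC cells. Eif3f had 172, 177 and 200 CPM, with 1.21 (0.62 to 1.79) and 0.12 (-0.45 to 0.69). Tfap2d had 40.3, 9.08 and 9.07 CPM, with -1.47 (-2.60 to -0.33) and 0.06 (-1.05 to 1.18). Necab1 had 10.7, 17.3 and 23.1 CPM, with -0.68 (-1.92 to 0.56) and -1.98 (-3.26 to -0.70). On the plate of mouse 3 that held 29 RSC and 10 LEC core-like cells, Penk stood at 69.2 CPM in RSC and 39.8 CPM in LEC cells, Mgll at 209 and 96.1 CPM, Eif3f at 257 and 233 CPM, Tfap2d at 19.1 and 10.3 CPM and Necab1 at 4.57 and 30.2 CPM. These are values of 1 plate with no replicate. Of the fitted differences, none passed the threshold (adjusted p of 0.576 or over). Gnb4 had 1301, 1451 and 1048 CPM in LEC cells, and its log2 fold changes were 0.07 (-0.18 to 0.31) and 0.07 (-0.18 to 0.32).

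The same labels were then compared in shell-like cells, the kept cells under the Synpr limit with at least 50 CPM of Slc30a3, which came from the same plates. There were 9, 7 and 5 of them in RSC sums and 17, 27 and 29 in Unlabeled sums of mice 1, 2 and 3. Class markers were not level between the labels. Each shell marker had a negative log2 fold change, from -1.61 in Spon1 to -0.06 in Slc30a3, with Nnat at -1.23 (-2.12 to -0.35). The core markers had positive ones, up to 1.36 in Cpne4 (0.49 to 2.24), except for Cpne9 and Slc17a6. The part of cell make-up in this comparison and in the interaction below was not tested. Of 12242 genes, edgeR's quasi-likelihood test called 0 (0.0%) and DESeq2 called 367 (3.0%). With edgeR, 1594 genes had an unadjusted p under 0.05, a larger share than the 5.32% in core-like cells. The smallest adjusted p of edgeR's test was 0.0755 in shell-like cells, beside 0.710 in core-like cells. The shell-like values came from a fit of the core-like and shell-like sums together, the core-like ones from a fit of core-like sums alone. The shares and the adjusted p thus come from unlike fits, and no order of the classes is drawn from them. mt-Rnr2 had 3665, 5630 and 4342 CPM in RSC and 7269, 6357 and 7895 CPM in Unlabeled shell-like cells (log2 fold change -0.67, 95% interval -0.98 to -0.35; adjusted p = 0.152). Ndufv3 had -0.57 (-0.88 to -0.25) and Rplp2 -0.91 (-1.43 to -0.38). Eif3f had 170, 263 and 228 CPM against 162, 87.0 and 37.0 CPM (1.20, 0.28 to 2.13), and Mgll had 279, 194 and 41.2 CPM against 102, 69.6 and 72.5 CPM (1.10, 0.12 to 2.08). Penk had 7.52, 1.25 and 38.4 CPM against 19.7, 62.3 and 13.5 CPM (-1.11, -2.93 to 0.71). Tfap2d had 3.13, 26.3 and 18.5 CPM against 1.48, 3.92 and 12.5 CPM (1.30, -0.32 to 2.93). The RSC shell-like sums rest on 9, 7 and 5 cells, so low levels of Penk and Tfap2d in them come from few counts. Whether the difference between labels was unequal in core-like and shell-like cells was tested as an interaction, and 0 genes passed (0.0%; 856, 6.99%, at an unadjusted p under 0.05), while DESeq2 called 31 (0.253%). In edgeR's test the interaction of Penk was 3.45 on the log2 scale (0.91 to 5.99, adjusted p = 0.561). That of Tfap2d was -2.70 (-4.92 to -0.49, 0.616). Mgll had -0.11 (-1.47 to 1.25) and mt-Rnr2 had 0.23 (-0.22 to 0.67, 0.917). These genes were picked for a small p in the core-like sums, which also enter the interaction. Its size in them follows in part from the choice, and no difference between the classes is drawn from it.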

How the data were processed

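Single-cell RNA-seq of hand-picked claustral cells was analysed. The authors deposited raw counts per gene and cell, not normalized, with a table giving animal, plate and projection label; per the paper's methods, STAR was the aligner and reads carried cell barcodes and molecular identifiers, and the submitters' processing notes name NCBIM37 and Seurat. Totals per cell are of the size stated there for reads, so counts were taken as reads. Intervals of shares of cells cover counting error only. Those of log2 fold changes come from edgeR's fit, which draws on the spread between sums and on that of other genes. The spread between sums holds mouse and plate together. Counts of core-like cells were summed per mouse and label and tested with edgeR 4.0.16 (TMM, filterByExpr, quasi-likelihood F test) with p adjusted by Benjamini-Hochberg at a threshold of 0.05 in R 4.3.3, without Synpr, Snap25 and Slc17a7. CPM are scaled to the total of a sum without the 89 spike-ins. Mice are the replicates. Alternatives used DESeq2 1.42.0 and limma 3.58.1 (log2(CPM + 1) averaged over cells). The fits were tested on simulated data.

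Labels of a mouse share the animal, which pairs the sums. Deviations from the group means correlated across genes at 0.00491, 0.00176 and 0.0439 within mice and from -0.0249 to 0.0181 between mice. A fit with the mouse as a block was run as an alternative.

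Genes were named by a rule: in each direction the 10 with the largest change past the threshold or, as here where 0 passed, the smallest p with a mean of at least 10 CPM, then all core and shell markers, then the member of smallest p in each other list (that of the microglia list is not reported here). The members and lists were chosen with earlier results of these data known. Alternatives were the tool, normalization, low-count filter, block, each mouse or plate left out, Synpr limits of 100 and 500 CPM, spike-ins in the total, cells thinned to 20000 counts, cells over 50 CPM of Slc30a3 left out, and LEC sums added. Leaving out cells with Gad1 and Gad2 was chosen after seeing the data.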

Additional observations from a re-analysis of the deposited data

How the results depend on the processing

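The count of 0 genes past the threshold for RSC against Unlabeled core-like cells stood under 13 of 18 alternatives, among them both other normalizations, the mouse as a replicate block (0 genes, 562 at an unadjusted p under 0.05), both Synpr limits and each of the plates of mouse 3 left out. It moved to 15 genes with DESeq2 and to 10 without the low-count filter (19704 genes). Those 10 were Gad1, Sst, Npy, Crhbp, Penk, Mgll, Laptm4b, Eif3f, Glrx5 and AC027184.1. The count was 6 with limma on the mean log2 level over cells, all lower in RSC cells (AC027184.1, Bdnf, Camk2d, Eif1ax, Necab1 and Tfap2d). In thinned cells (7944 genes) it was 1, AC027184.1. Leaving out each mouse gave 0 to 1 genes. The 1 gene, Sst without mouse 2 (adjusted p = 0.0228), had 66.1% of its RSC counts in 1 cell with Gad1 and Gad2. With DESeq2, LEC against Unlabeled moved to 27 genes, RSC against LEC to 9, shell-like cells to 367 and the interaction to 31; the mouse as a block and leaving out each mouse gave 0 in all 4, and the block changed no call. The cause of these moves was not tested.

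Over the 54 genes that the naming rule gave and all alternatives, 956 values were computed; 25 were past the threshold, in 15 genes, and 33 had another sign than reported, in 11 genes, none of them past the threshold as reported or among the 20 genes of smallest p. Npy, which the rule did not name, turned from 4.13 to -0.85 on the log2 scale without the cells with Gad1 and Gad2. Adjusted p of those 20 genes ran from 0.000512 to 1. The mitochondrially encoded share reversed from -0.40 to 0.084 percentage points with means over cells in place of medians. Genes under 10 CPM had the widest intervals.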
